A study of Arabidopsis thaliana with 48 samples.

Results

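Mitogen-activated protein kinase (MAPK) cascades carry signals from receptors at the plasma membrane to transcription factors in 3 steps: a MAP kinase kinase kinase phosphorylates a MAP kinase kinase (MKK), which phosphorylates a MAP kinase (MPK). In Arabidopsis immunity and wounding, MKK4 and MKK5 act on MPK3 and MPK6, and MKK1 and MKK2 act on MPK4. The 10 genes of these cascades were followed here, taken as a list of gene identifiers with no threshold on a measured value: the MAP kinases MPK3, MPK6, MPK4 and MPK11, the MAP kinase kinases MKK1, MKK2, MKK4, MKK5 and MKK9, and AP2C1, a protein phosphatase of type 2C that dephosphorylates MAP kinases. Earlier results of these data were known when the list was chosen. These genes are 10 of the 33602 genes in the count table, and all 10 passed the filter on low counts that left 19839 genes for testing. RNA sequencing counts transcripts, so the values describe how much mRNA of each kinase was present and not how much of the kinase was phosphorylated.

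The libraries came from whole Arabidopsis thaliana Col-0 seedlings, 7 days old and grown in liquid medium. One line was the mutant card1-2 (card1), made in the aequorin-expressing background, and the other was the wild type expressing aequorin (WT), a protein that emits light when it binds calcium; both lines therefore carry the reporter. CARD1 is a leucine-rich repeat receptor kinase needed for the calcium response to quinones. Seedlings received 5 µM DMBQ (2,6-dimethoxy-1,4-benzoquinone, a quinone of plant cell wall origin) or an equal volume of DMSO, the solvent, and were sampled at 0, 0.5, 1 and 6 h. The groups are card1 with DMBQ, card1 with DMSO, WT with DMBQ and WT with DMSO at each of the 4 times, which makes 16 groups of 3 libraries. Whether the 3 libraries of a group are separate cultures is not stated in the labels; the spread behind each p-value is that between libraries and could be technical only. A group at 0 h labelled DMBQ exists beside one labelled DMSO, and the labels do not say how long the agent was present in it.

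The library labels were checked first on the mutated gene. CARD1 (AT5G49760) averaged 27.9 CPM (the usual library-scaled unit of read counts, with TMM library sizes) in the 24 card1 libraries and 84.1 CPM in the 24 WT libraries, with every card1 library below every WT library. Depth ran from 4764682 to 14492051 counts per library. Replicates of a group had Spearman correlations of 0.974 to 0.994 across genes. Some libraries stood apart in how expression, relative to the mean of all libraries, varied with transcript length. Across genes, Spearman's correlation with length was −0.557 and −0.539 in replicates 1 and 2 of card1 DMSO at 0 h and −0.465 to −0.427 in the 3 WT DMBQ libraries at 0.5 h, against −0.237 to 0.200 in the other 43 libraries. Because of them, values corrected for transcript length and GC content, or from other libraries, are given where they change a call.

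The 10 genes differed widely in abundance. Corrected for transcript length, the median of the 16 group means was 52.7 CPM per kb of transcript for MPK6 and 43.4 CPM per kb for MPK3. MKK2 followed at 27.8, MPK4 at 19.6 and MKK5 at 11.2 CPM per kb. MKK9, MKK4, AP2C1 and MKK1 lay close together, at 5.99, 5.89, 5.38 and 4.28 CPM per kb. MPK11, a close relative of MPK4, was the least abundant at 0.221 CPM per kb and had only 0 to 22 counts in a library. The genes also differed in how much they moved. MPK6 and MPK4 were nearly flat: the highest of the 16 group means was 1.21 times the lowest for MPK6 (81.8 to 98.6 CPM) and 1.27 times for MPK4 (50.6 to 64.1 CPM). MKK2, MKK5 and MKK1 spanned 1.504-fold, 1.78-fold and 1.86-fold. MKK4 spanned 2.32-fold, AP2C1 2.80-fold, MPK3 3.33-fold and MKK9 5.56-fold. MPK11 spanned 12.4-fold, on few counts. The median SD within a group on the log2 scale was 0.06 for MPK6, 0.07 for MPK4, 0.08 for MKK2, 0.13 for MKK5, 0.17 for MKK4, 0.18 for AP2C1, 0.21 for MKK1, 0.22 for MPK3, 0.27 for MKK9 and 0.47 for MPK11.

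**Figure D1:**
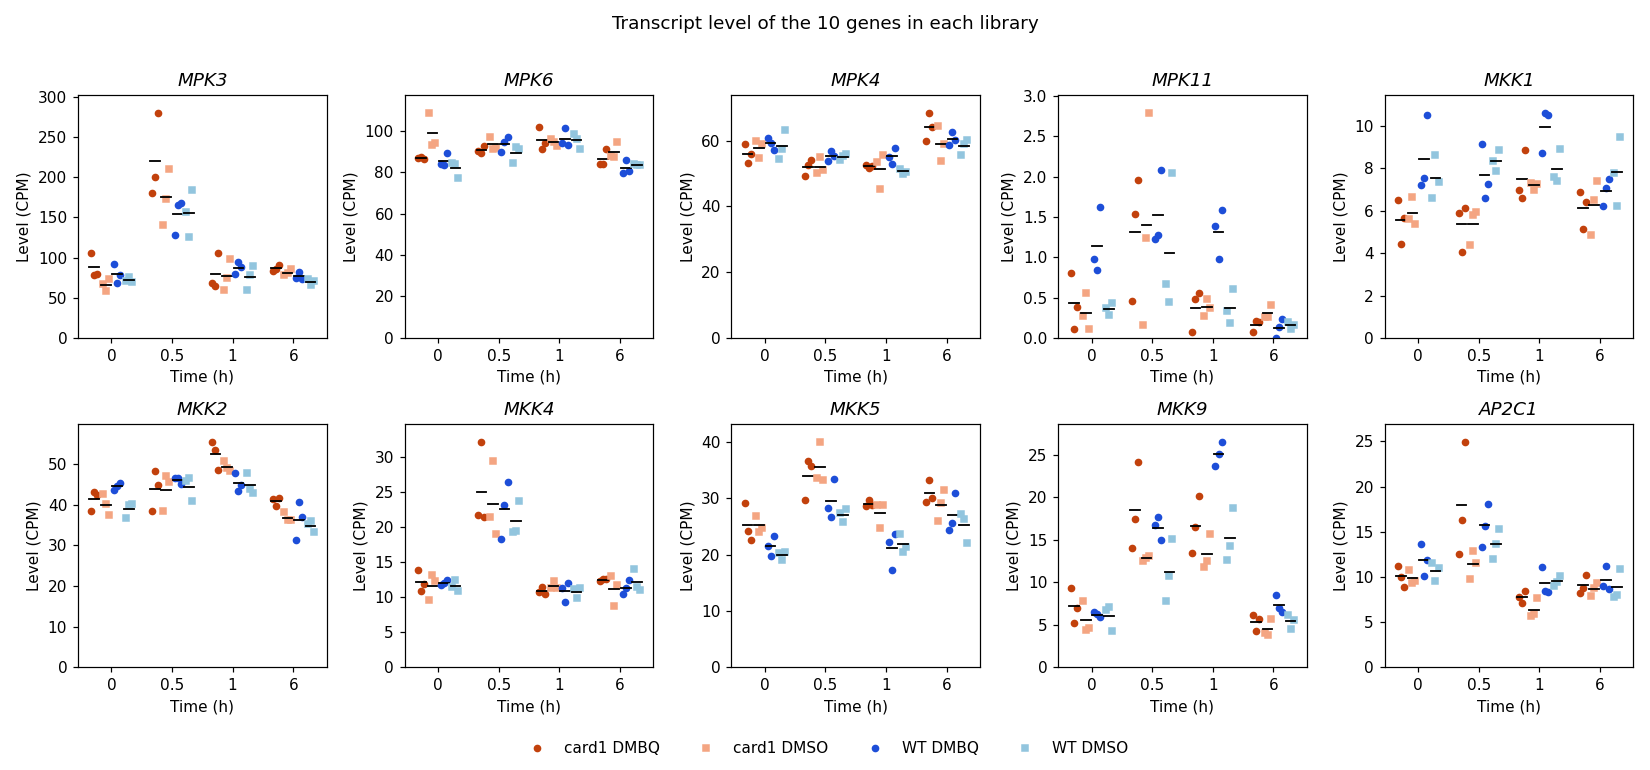
Level of each of the 10 genes in every library (CPM, linear axis from 0) against time in hours, with card1 DMBQ, card1 DMSO, WT DMBQ and WT DMSO from left to right at each time; each point is 1 library and each line the mean of 3. MPK3 and MKK4 peak at 0.5 h in all 4 arms, MKK9 is high at both 0.5 and 1 h, and MPK6 and MPK4 stay nearly level.

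In the TAIR10.1 annotation, MPK3 (AT3G45640) lies at chr3:16756571-16758874, MPK6 (AT2G43790) at chr2:18138246-18140988, MPK4 (AT4G01370) at chr4:566917-570299 and MPK11 (AT1G01560) at chr1:202103-204440, all on the plus strand. MKK1 (AT4G26070) lies at chr4:13217475-13219936, MKK4 (AT1G51660) at chr1:19154323-19156338 and MKK5 (AT3G21220) at chr3:7445604-7448498 on the plus strand, with MKK2 (AT4G29810) at chr4:14592963-14595384 and MKK9 (AT1G73500) at chr1:27639091-27640643 on the minus strand. AP2C1 (AT2G30020) lies at chr2:12814271-12816360 on the plus strand. MKK4 and MKK9 have 1 exon each. MPK3, MPK6, MPK4, MKK1 and MKK5 overlap a gene on the opposite strand, and MKK4 overlaps AT1G51670 on its own strand. No source used here gives the strand setting of the authors' counting, and reads in those overlaps cannot be assigned with certainty.

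Because 5 of the genes moved most, the 250 bases before their annotated starts are shown, read from the genome on the strand of the gene from 5′ to 3′. The genes are MPK3 (chr3:16756321-16756570), MKK4 (chr1:19154073-19154322), MKK9 (chr1:27640644-27640893, minus strand), MPK11 (chr1:201853-202102) and AP2C1 (chr2:12814021-12814270). Capitals mark TTGAC on either strand, the core of the W box that WRKY factors bind; on the other strand it reads GTCAA.
MPK3: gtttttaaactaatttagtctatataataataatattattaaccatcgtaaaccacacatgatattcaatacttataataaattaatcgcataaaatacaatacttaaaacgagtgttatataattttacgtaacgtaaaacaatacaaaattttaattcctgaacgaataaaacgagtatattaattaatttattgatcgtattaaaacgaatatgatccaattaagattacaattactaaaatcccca
MKK4: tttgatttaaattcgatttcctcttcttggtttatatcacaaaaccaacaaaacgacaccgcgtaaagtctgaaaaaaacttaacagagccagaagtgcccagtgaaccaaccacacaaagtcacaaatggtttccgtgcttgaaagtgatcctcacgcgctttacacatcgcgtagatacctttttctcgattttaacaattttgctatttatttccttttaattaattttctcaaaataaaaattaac
MKK9: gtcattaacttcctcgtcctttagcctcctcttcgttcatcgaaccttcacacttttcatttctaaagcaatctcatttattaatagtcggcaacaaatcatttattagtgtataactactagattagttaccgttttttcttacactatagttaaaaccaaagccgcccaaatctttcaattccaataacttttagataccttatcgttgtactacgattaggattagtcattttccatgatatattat
MPK11: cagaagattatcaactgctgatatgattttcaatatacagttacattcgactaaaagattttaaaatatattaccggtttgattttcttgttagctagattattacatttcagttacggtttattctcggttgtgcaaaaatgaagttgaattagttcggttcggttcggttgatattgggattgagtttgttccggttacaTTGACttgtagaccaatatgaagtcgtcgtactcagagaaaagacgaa
AP2C1: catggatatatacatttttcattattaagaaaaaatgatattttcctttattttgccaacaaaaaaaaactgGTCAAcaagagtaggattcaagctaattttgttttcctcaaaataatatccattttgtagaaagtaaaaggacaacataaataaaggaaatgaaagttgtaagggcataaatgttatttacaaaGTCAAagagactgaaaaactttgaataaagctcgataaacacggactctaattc
TTGAC was found 2 times before AP2C1 and 1 time before MPK11, and was not found in these windows of MPK3, MKK4 or MKK9. Among the other members it occurred 3 times before MPK6 and before MKK2 and 1 time before MPK4, so MPK6, the flattest of the 10 genes, had as many matches as any. At least 1 TTGAC was present in 44.9% of 27443 windows of the same length before protein-coding genes, and 2 or more in 14.1%. CGCGTT, a rapid stress response element, was found only before MPK4 among the 10 genes and in 2.59% of all windows. TGACG, the core bound by TGA factors, was found before none of the 10 genes and in 18.6% of all windows. A match of these letters is a description of the window, not a bound site.

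To ask whether the quinone changes cascade transcripts, DMBQ libraries were compared with DMSO libraries of the same line and time. MKK9, the MAP kinase kinase linked to ethylene and camalexin synthesis, was the only member that passed the test, and only in WT at 1 h. It had 23.7, 25.1 and 26.5 CPM in WT DMBQ libraries, against 12.6, 14.3 and 18.7 CPM in WT DMSO libraries. Every DMBQ library was above every DMSO library. The means were 25.1 ± 1.38 and 15.2 ± 3.16 CPM (SD, n = 3 each), 1.64-fold higher with DMBQ, with a log2 difference of 0.72 ± 0.18 (SE) and an adjusted p of 0.0128 by edgeR's quasi-likelihood test with Benjamini-Hochberg adjustment over all genes. Of all genes tested, 2.78% were called in this comparison and 2.08% were higher, beside 1 of 10 members. The call of MKK9 was lost without replicate 1 or 2 of WT DMSO at 1 h (log2 0.60 and 0.67, adjusted p = 0.137 and 0.0852 by edgeR) and without replicate 3 of WT DMBQ at 1 h (log2 0.67, adjusted p = 0.0761 by edgeR).

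At the other times and in card1, MKK9 had a positive DMBQ difference each time, and none of them passed. At 0.5 h it had 16.8, 17.7 and 14.9 CPM in WT DMBQ libraries, against 7.83, 10.8 and 15.1 CPM in WT DMSO libraries. The groups overlapped, with a log2 difference of 0.57 ± 0.20 and an adjusted p of 0.128 (edgeR). Without replicate 3 of WT DMSO at 0.5 h the log2 difference was 0.79, and the adjusted p of 0.05 (edgeR) was just under the threshold before rounding. In card1 at 0.5 h it had 14.03, 17.5 and 24.2 CPM in DMBQ libraries, against 12.6, 12.8 and 13.1 CPM in DMSO libraries. All 3 card1 DMBQ libraries were above the DMSO ones, with a log2 difference of 0.54 ± 0.21 and an adjusted p of 0.823 (edgeR). In card1 at 1 h the values were 13.4, 16.5 and 20.1 CPM with DMBQ, against 11.9, 12.5 and 15.7 CPM with DMSO. These overlapped, with a log2 difference of 0.29. At 6 h the level was low again in every arm. WT had 8.54, 6.94 and 6.57 CPM with DMBQ, against 6.17, 4.51 and 5.59 CPM with DMSO, a log2 difference of 0.47 without overlap and an adjusted p of 0.637 (edgeR).

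MPK11 had the largest DMBQ difference among the MAP kinases in WT at 1 h, on few counts. The 3 WT DMBQ libraries held 19, 14 and 20 counts (1.38, 0.984 and 1.58 CPM), against 4, 2 and 8 counts (0.338, 0.180 and 0.611 CPM) in the WT DMSO libraries. All DMBQ libraries were above all DMSO libraries, with a log2 difference of 1.72 ± 0.55 (95% interval 0.62 to 2.82), but the adjusted p of 0.0853 (edgeR) missed the threshold. The call depended on the fit: with only the compared groups the adjusted p was 0.0404 (edgeR). The same gene already differed at 0 h: WT libraries labelled DMBQ held 8, 9 and 14 counts, against 2, 3 and 3 counts in those labelled DMSO. That 0 h log2 difference was 1.65 ± 0.68 with an adjusted p of 1 (edgeR), so it was nearly as large as the difference at 1 h. In card1 at 1 h, MPK11 had 1, 4 and 4 counts with DMBQ, against 2, 3 and 3 counts with DMSO. These counts overlapped fully.

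AP2C1, the phosphatase, and MPK3 showed wide spread in card1 at 0.5 h. AP2C1 had 12.5, 16.4 and 24.9 CPM in card1 DMBQ libraries, against 9.79, 12.8 and 11.5 CPM in card1 DMSO libraries. The groups overlapped, and replicate 3 of the DMBQ group was the highest. The log2 difference was 0.65 ± 0.17 with an adjusted p of 0.21 (edgeR). Without replicate 1 of that group it was 0.85 with an adjusted p of 0.0141 (edgeR), the 1 left-out library that made a call for AP2C1. MPK3 had 180.3, 201 and 279.9 CPM in card1 DMBQ libraries, against 141, 173 and 211 CPM in card1 DMSO libraries. These overlapped too, with a log2 difference of 0.33 (95% interval −0.03 to 0.70). In WT at 0.5 h MPK3 had 128, 165 and 168 CPM with DMBQ, against 157, 126 and 184 CPM with DMSO, a log2 difference of −0.01. Replicate 3 of card1 DMBQ at 0.5 h held the highest value of that group for MPK3, MKK9, AP2C1 and MPK11, while MKK4 was highest in replicate 2.

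Across the 10 members, then, edgeR called 0 in WT at 0.5 h (2.45% of all genes called) and 0 at 6 h (1.22%). In card1 it called 0 at 0.5 h (0.151%), 0 at 1 h (1.18%) and 0 at 6 h (1.05%). Before adjustment, p was under 0.05 for 1, 3 and 0 members in WT at 0.5, 1 and 6 h, and for 2, 0 and 0 members in card1. DESeq2 gave the same counts of called members, 1 in WT at 1 h and 0 elsewhere. The median log2 difference of the members in WT was 0.10, 0.07 and 0.05 at the 3 times, beside medians of all genes within 0.01 of 0. In card1 it was −0.002, 0.04 and 0.09. Root and shoot markers were followed because whole seedlings were pooled, and in bulk RNA fewer cells of a type and less RNA per cell cannot be told apart. At 1 h the summed level of 7 root markers was 114 to 120.3 CPM in WT DMBQ libraries and 143 to 168 CPM in WT DMSO libraries, with 2 of the 7 called lower and none at 0. In card1 it was 116 to 136 CPM with DMBQ and 148 to 166 CPM with DMSO. Their part in the values of MKK9 and MPK11 was not tested.

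**Figure D2:**
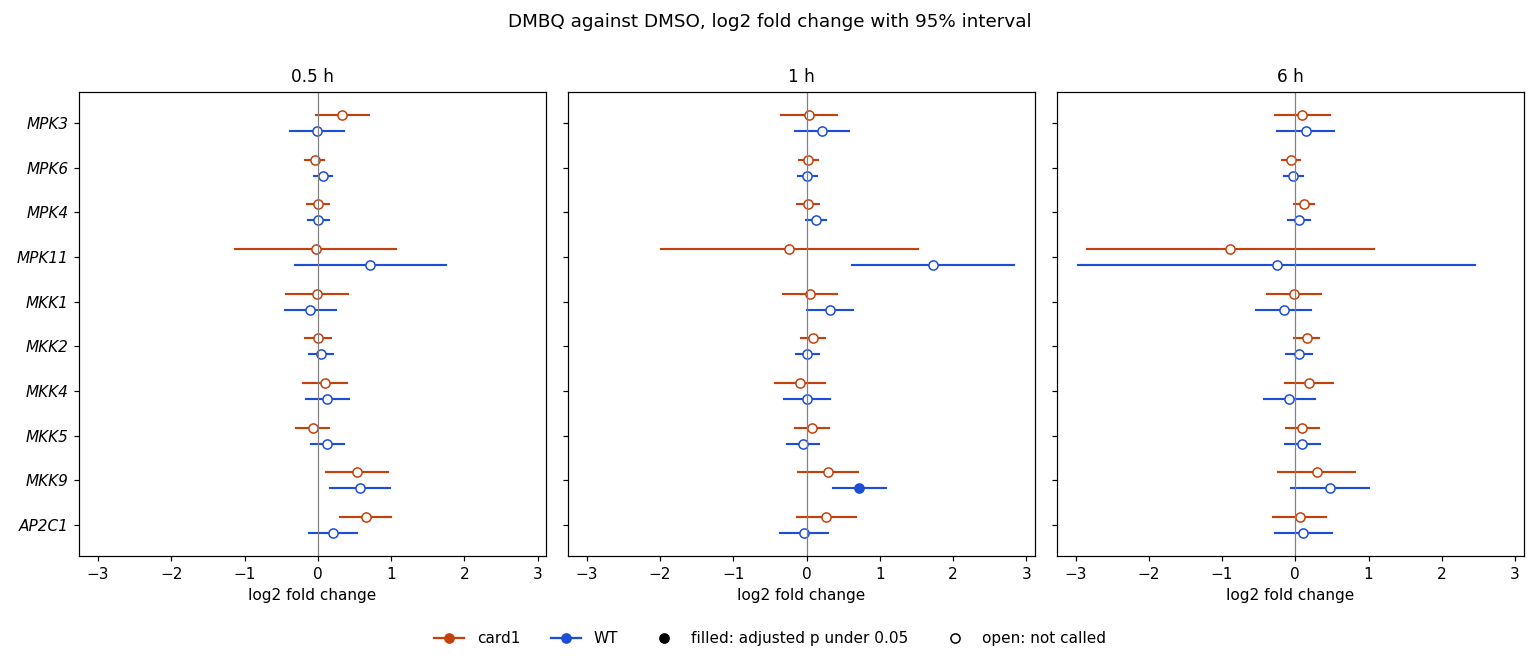
Log2 difference of DMBQ against DMSO for each of the 10 genes at 0.5, 1 and 6 h in card1 and WT, with 95% intervals (n = 3 libraries against 3); filled points passed an adjusted p of 0.05. The only filled point is MKK9 in WT at 1 h (0.72), and the widest intervals belong to MPK11.

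Whether the DMBQ response differed between the lines was tested as the card1 response minus the WT response. No member and no gene of the 19839 passed at 0.5, 1 or 6 h by edgeR, and none of the 10 members had p under 0.05 before adjustment. Over all genes, 2009, 460 and 1041 had such a p, and DESeq2 called 9, 1 and 0 genes, no member among them. Leaving out 1 library at a time gave edgeR 0 to 63 genes at 0.5 h, the most without replicate 3 of card1 DMSO at 0.5 h. For MKK9 the difference of responses was −0.03 (95% interval −0.62 to 0.55) at 0.5 h, −0.43 (−0.97 to 0.12) at 1 h and −0.18 (−0.93 to 0.58) at 6 h. For MPK11 at 1 h it was −1.96 (−4.12 to 0.20). At 0.5 h it was 0.45 (−0.03 to 0.92) for AP2C1 and 0.35 (−0.17 to 0.86) for MPK3. The intervals leave room for differences as large as the responses themselves, so the DMBQ responses of the lines were not shown to differ and not shown to be alike.

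More members were called over time than between the agents, and so were more of all genes. With DMSO, 17.3%, 36.3% and 50% of all genes were called at 0.5, 1 and 6 h against 0 h. For DMBQ against DMSO at these times the share was 0.151% to 2.78%. With DMSO alone, 5 members rose within 0.5 h of solvent addition in the mean of both lines: MPK3, MKK4, MKK5, MKK9 and MPK11. Of all genes, 17.3% were called in this comparison and 9.57% were called higher, so 5 of 10 members higher stands beside that share. The members' median log2 difference was 0.38, against −0.02 for all genes. Each later time below was compared with the same 0 h libraries, so the contrasts share them, and the agent and the handling of the seedlings cannot be told apart in a change over time within an arm.

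MPK3, the stress-induced MAP kinase, had 141, 173 and 211 CPM in card1 DMSO libraries at 0.5 h, against 66.7, 58.8 and 72.8 CPM at 0 h. In WT DMSO libraries it had 157, 126 and 184 CPM at 0.5 h, against 70.6, 75.8 and 70.1 CPM at 0 h. Each 0.5 h library was above each 0 h library in both lines. The mean was 165 ± 31 CPM at 0.5 h and 69.1 ± 5.9 CPM at 0 h (SD over 6 libraries each), a log2 rise of 1.25 ± 0.13 with an adjusted p of 7.13e-09 (edgeR). MPK6, which shares substrates with MPK3, had 91.3 to 97.1 CPM in card1 and 84.2 to 92.01 CPM in WT at 0.5 h, against 93.3 to 109 CPM in card1 and 77.0 to 84.3 CPM in WT at 0 h, all with DMSO. Its mean log2 difference was 0.02, and card1 DMSO at 0 h was the group with the highest mean of MPK6. MPK4 had a log2 difference of −0.12 (adjusted p = 0.12, edgeR), but −0.19 with a call as lower after the correction for length and GC content (adjusted p = 0.00863, edgeR). Without replicate 1 of WT DMSO at 0 h it was called too (−0.15, adjusted p = 0.048, edgeR). MPK11 rose by a log2 of 1.68 ± 0.50 (adjusted p = 0.0134, edgeR), from counts of 1, 10 and 16 in card1 and 5, 5 and 12 in WT at 0.5 h, against 2, 6 and 1 in card1 and 2, 3 and 3 in WT at 0 h. Its groups overlapped, and the call was lost without replicate 3 of card1 DMSO at 0.5 h (1.25, adjusted p = 0.109, edgeR) or of WT DMSO at 0.5 h (1.28, adjusted p = 0.0952, edgeR).

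Of the kinases above MPK3 and MPK6, MKK4 had 21.5, 29.5 and 19.003 CPM in card1 DMSO libraries at 0.5 h, against 9.57, 13.1 and 12.4 CPM at 0 h. In WT it had 19.3, 19.5 and 23.8 CPM at 0.5 h, against 11.6, 12.5 and 10.98 CPM at 0 h. No 0.5 h library overlapped a 0 h library, and the log2 rise was 0.91 ± 0.11 (adjusted p = 3.97e-08, edgeR). MKK5, which acts with MKK4, rose less: 33.6, 39.9 and 33.1 CPM in card1 and 27.4, 25.7 and 28.1 CPM in WT at 0.5 h, against 26.8, 24.1 and 24.7 CPM in card1 and 20.4, 19.04 and 20.4 CPM in WT at 0 h. Within each line every 0.5 h library was above every 0 h library, and the log2 rise was 0.47 ± 0.08 (adjusted p = 2.92e-05, edgeR). MKK9 had 12.6, 12.8 and 13.1 CPM in card1 and 7.83, 10.8 and 15.1 CPM in WT at 0.5 h, against 7.79, 4.44 and 4.58 CPM in card1 and 6.78, 7.11 and 4.33 CPM in WT at 0 h. The lowest 0.5 h library was just above the highest 0 h library, and MKK9 rose by a log2 of 1.04 ± 0.17 (adjusted p = 1.04e-05, edgeR). MKK1 and MKK2, the kinases above MPK4, had log2 differences of −0.01 and 0.16. For MKK2 this lay at the threshold (adjusted p = 0.0535, edgeR), and it was called with RLE factors (0.17, adjusted p = 0.0494, edgeR) and without replicate 1 of card1 DMSO at 0.5 h, replicate 3 of WT DMSO at 0.5 h or replicate 1 of WT DMBQ at 1 h (0.16 to 0.19, adjusted p = 0.0222 to 0.0496, edgeR). AP2C1 had 0.29 (adjusted p = 0.109, edgeR).

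**Figure D3:**
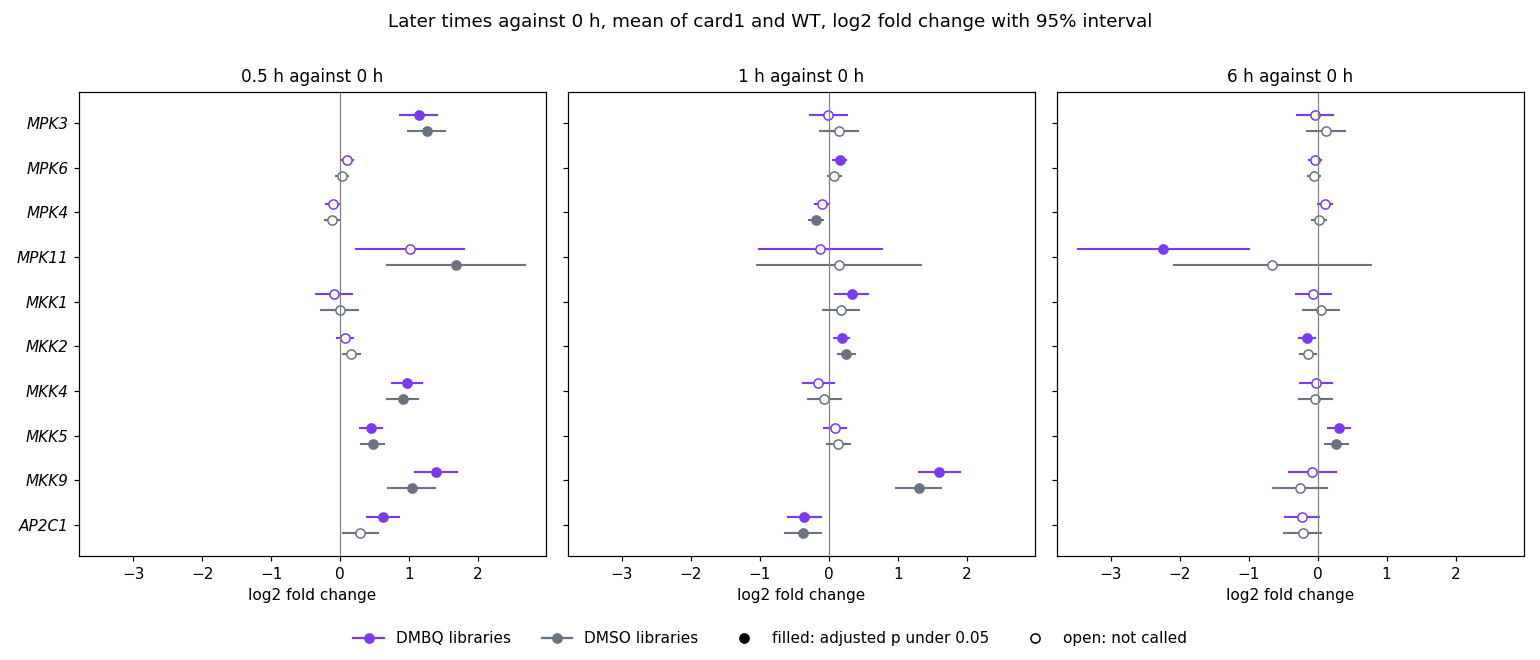
Log2 difference of each later time against 0 h for the 10 genes, as the mean of card1 and WT (n = 6 libraries against 6), with 95% intervals; DMBQ libraries and DMSO libraries are drawn separately, and filled points passed an adjusted p of 0.05. MPK3 and MKK4 are above 0.9 in both arms at 0.5 h, and MKK9 is highest at 1 h, at 1.60 with DMBQ and 1.302 with DMSO.

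At 1 h MPK3 and MKK4 were no longer called against 0 h, while MKK9 still was. With DMSO, 2 members were higher and 2 lower than at 0 h, where 36.3% of all genes were called, 18.3% higher and 18% lower. MKK9 had 11.9, 12.5 and 15.7 CPM in card1 and 12.6, 14.3 and 18.7 CPM in WT at 1 h, all above its 0 h libraries, a log2 rise of 1.302 ± 0.16 (adjusted p = 3.89e-08, edgeR). MKK2 rose slightly, with 50.8, 49.1 and 48.2 CPM in card1 and 47.9, 43.8 and 42.9 CPM in WT at 1 h, against 42.5, 40.2 and 37.3 CPM in card1 and 36.7, 39.8 and 40.2 CPM in WT at 0 h. The 1 h libraries were all above the 0 h libraries, with a log2 rise of 0.25 (adjusted p = 0.00066, edgeR). MPK4 fell by a log2 of 0.18 (adjusted p = 0.004, edgeR), with means of 51.0 CPM at 1 h and 58.1 CPM at 0 h. AP2C1 fell by a log2 of 0.38 (adjusted p = 0.0206, edgeR), with 7.97 CPM at 1 h and 10.3 CPM at 0 h. Taken alone, card1 gave −0.61 and WT −0.15, and the call was lost without replicate 1 of card1 DMSO at 1 h (−0.34, adjusted p = 0.0555, edgeR). MPK3 at 1 h had 60.1, 74.3 and 97.9 CPM in card1 and 59.5, 78.0 and 89.0 CPM in WT with DMSO. These values overlap those at 0 h, with a log2 difference of 0.15, and MKK4 had −0.07.

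At 6 h with DMSO, MKK5 alone passed, with means of 27.0 CPM at 6 h and 22.6 CPM at 0 h (log2 0.27, adjusted p = 0.00635, edgeR), while 50% of all genes were called. MKK2 lay at the threshold (log2 −0.14, adjusted p = 0.052, edgeR), and 16 of the 48 fits with 1 library left out called it. The members' median log2 difference was −0.04 at 6 h, against 0.14 at 1 h. Clock genes moved over the same hours: the summed level of 9 clock genes was 322 to 385 CPM over the 6 DMSO libraries at 6 h and 525 to 707 CPM at 0 h. Of those 9 genes, 3 were called higher and 6 lower at 6 h, with none at 0. Their part in the MKK5 value was not tested.

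The card1 DMSO libraries at 0 h were among those that stood apart, so the time course was read in WT alone and in the DMBQ libraries as well. In WT alone, 4 members rose by 0.5 h (8.45% of all genes called, 5.24% higher): MPK3 by 1.10, MKK9 by 0.85, MKK4 by 0.82 and MKK5 by 0.44 on the log2 scale. In card1 alone, 5 members rose (21.1%, 11.3% higher), with MPK3 at 1.41, MKK9 at 1.23, MKK4 at 1.00, MKK5 at 0.51 and MPK11 at 1.99. At 1 h WT alone gave 3 calls (18.3%), MKK9 at 1.31, MPK6 at 0.22 and MPK4 at −0.20, and card1 alone gave 3 (26.9%), MKK9 at 1.29, MKK2 at 0.30 and AP2C1 at −0.61. At 6 h WT alone gave 1 call (31.2%), MKK5 at 0.34, and card1 alone gave 0 (41.6%).

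With DMBQ in place of DMSO, 5 members rose by 0.5 h in the mean of both lines, where 24.1% of all genes were called and 12.1% were higher. The WT DMBQ libraries at 0.5 h are also among those that stood apart by transcript length. The 0.5 h values with DMBQ were not corrected for it. MPK3 averaged 187 ± 51 CPM at 0.5 h and 83.9 ± 13 CPM at 0 h (log2 1.14). MKK4 averaged 23.9 CPM at 0.5 h and 12.2 CPM at 0 h (0.97). MKK9 averaged 17.5 CPM at 0.5 h and 6.69 CPM at 0 h (1.39), and MKK5 31.7 CPM at 0.5 h and 23.4 CPM at 0 h (0.44). AP2C1 was the fifth member, with 16.8 CPM at 0.5 h and 10.98 CPM at 0 h (log2 0.62, adjusted p = 5.49e-05, edgeR), and MPK11 just missed (1.01, adjusted p = 0.0514, edgeR). At 1 h, 4 members were higher and 1 lower (34.1% of all genes called, 17.1% higher and 17% lower). MKK9 averaged 20.9 CPM at 1 h and 6.69 CPM at 0 h (1.60), MKK1 8.72 CPM at 1 h and 6.98 CPM at 0 h (0.33), and the others were MKK2 at 0.18, MPK6 at 0.15 and AP2C1 at −0.35. At 6 h, MKK5 was higher (0.31) and MKK2 (−0.16) and MPK11 (−2.24) were lower (47.1%). MPK11 averaged 0.143 CPM at 6 h and 0.787 CPM at 0 h in these libraries, 0 to 2 counts against 1 to 14.

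Whether the time course differed between the lines was tested in the same way. With DMSO, card1 minus WT gave 0 members by edgeR at 0.5, 1 and 6 h, where 6.4%, 0.126% and 1.2% of all genes were called. Before adjustment 1, 1 and 0 members had p under 0.05, and DESeq2 called 0 members at each time. At 0.5 h, 1269 genes were called, and 115 after the length and GC correction. With DMBQ it also gave 0 members, at 3.48%, 0.00504% and 0.585% of all genes. The 0.5 h share with DMBQ uses the WT DMBQ libraries that stood apart and was not corrected for transcript length. The closest was MPK6 at 1 h with DMSO, at −0.28 (95% interval −0.46 to −0.10, adjusted p = 0.142, edgeR). It uses the card1 DMSO libraries at 0 h, where MPK6 had 109, 93.3 and 94.1 CPM. Without replicate 3 of that group the difference was −0.32 with an adjusted p of 0.0181 (edgeR). That fit keeps only replicates 1 and 2 of the group, the libraries that stood apart by transcript length. Over the reported fit and 8 alternatives with all 3 replicates the difference ran from −0.29 to −0.03, without a call.

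The groups at 0 h were also set against each other, a comparison added after the data were seen. Called members numbered 0 in card1, where DMBQ libraries differed from DMSO libraries in 5.45% of all genes, and 0 in WT, where 0.126% were called, by edgeR. The card1 share was 1082 genes, and 9 were called after a correction for transcript length and GC content. Before adjustment 2 members in each line had p under 0.05. In card1 these were MPK6, with 86.8 CPM in DMBQ libraries and 98.6 CPM in DMSO libraries (log2 −0.18, adjusted p = 0.0711, edgeR), and MPK3, with 87.8 CPM in DMBQ libraries and 66.1 CPM in DMSO libraries (0.41, adjusted p = 0.192, edgeR). In WT they were MPK11, given above, and MKK2 (0.19). DESeq2 called 1 member, MPK6 in card1, and 0 in WT.

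In the mean over agents and times, MKK1 and MKK5 differed between the lines in opposite directions. In this comparison 44.6% of all genes were called. The pairs of groups below were counted for the members only, so the share of all genes with such counts is not known. MKK5 was higher in card1 in 8 of the 8 pairs of groups matched for agent and time, by 1.14 to 1.38 times in mean CPM, and in 4 of the 8 every card1 library was above every WT library. With DMSO at 0 h it had 26.8, 24.1 and 24.7 CPM in card1, against 20.4, 19.04 and 20.4 CPM in WT. With DMBQ at 1 h it had 28.6, 29.7 and 28.7 CPM in card1, against 22.2, 17.3 and 23.7 CPM in WT. Neither pair of groups overlapped. Over all 24 libraries of each line the means were 29.5 CPM in card1 and 24.1 CPM in WT, a log2 difference of 0.30 ± 0.04 (adjusted p = 9.89e-08, edgeR). MKK1, the kinase above MPK4, was lower in card1 in 8 of 8 pairs, at 0.643 to 0.902 times the WT mean, and without overlap in 4. With DMSO at 0.5 h it had 4.41, 5.80 and 5.93 CPM in card1, against 8.37, 7.88 and 8.85 CPM in WT, which did not overlap. With DMSO at 6 h it had 4.85, 6.53 and 7.40 CPM in card1, against 7.76, 6.24 and 9.47 CPM in WT, which did. The overall means were 6.16 CPM in card1 and 8.09 CPM in WT, a log2 difference of −0.39 ± 0.06 (adjusted p = 3.15e-06, edgeR).

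The other members differed less between the lines. MPK6 was higher in card1 by a log2 of 0.06 ± 0.02 (91.9 CPM in card1 and 88.3 CPM in WT, adjusted p = 0.0289, edgeR), and AP2C1 was lower by 0.17 (10.14 CPM in card1 and 11.2 CPM in WT, adjusted p = 0.0261, edgeR). In all, 4 of 10 members were called, 2 in each direction. Of all genes tested 44.6% were called, 21.9% higher and 22.6% lower in card1, so a share of 4 in 10 is near the background. In DMBQ libraries alone (34.6% of all genes called), MKK5 (0.27, adjusted p = 0.000176, edgeR) and MKK1 (−0.43, adjusted p = 0.000227, edgeR) remained called, and MPK6 (0.01) and AP2C1 (−0.10) were not. In DMSO libraries alone (25.7%), MKK5 (0.32), MKK1 (−0.36) and MPK6 (0.11) were called. Without the DMSO libraries at 0 h, MKK5, MKK1 and AP2C1 were called and MPK6 was not (0.03, adjusted p = 0.332, edgeR). With the correction for length and GC content MKK2 was called as well, higher in card1 (0.09, adjusted p = 0.0112, edgeR). Leaving out replicate 3 of WT DMSO at 0 h or of card1 DMBQ at 6 h ended the call of MPK6, and leaving out replicate 3 of WT DMSO at 6 h that of AP2C1 (log2 −0.15, adjusted p = 0.0535, edgeR). The summed level of 7 shoot markers moved with the lines: at 0 h with DMSO it was 36768 to 40959 CPM in card1 libraries and 28385 to 31450 CPM in WT libraries, with 2 of the 7 called higher in card1 over all conditions and none at 0. Their part in the values of MKK5 and MKK1 was not tested.

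**Figure D4:**
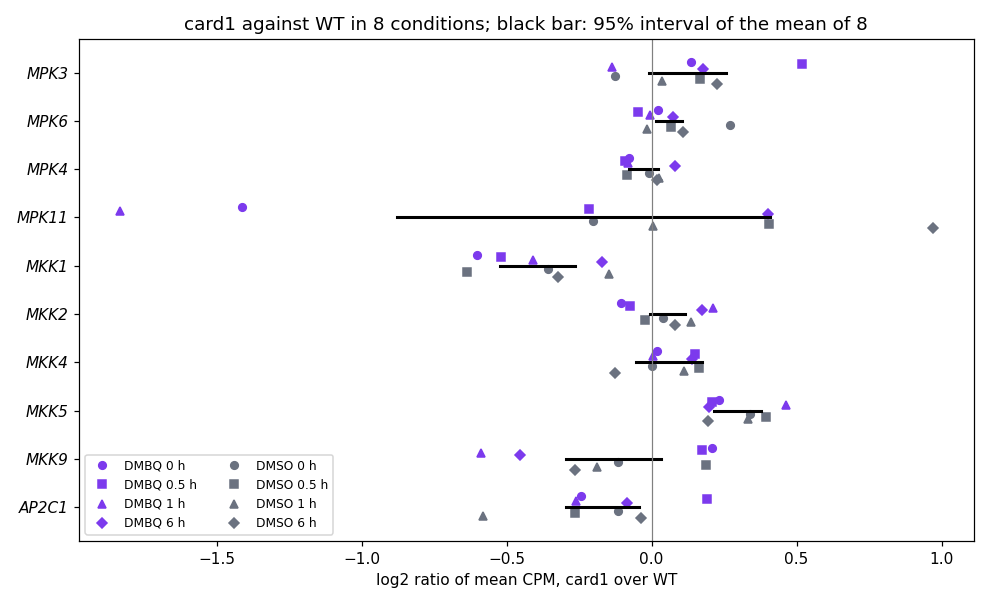
Log2 ratio of mean CPM in card1 to that in WT for each of the 10 genes, 1 point for each of the 8 combinations of agent and time (n = 3 libraries against 3), with a black bar for the 95% interval of the mean of the 8 from the fitted model. All 8 points of MKK5 lie above 0 and all 8 of MKK1 below 0, while the points of MPK11 are widely scattered.

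Members moved together to different degrees. Pearson's correlation of log2 levels over the 16 group means was 0.963 between MPK3 and MKK4, 0.800 between MKK4 and AP2C1 and 0.776 between MPK3 and AP2C1. It was 0.738 between MKK2 and MKK9 and 0.490 between MPK3 and MKK9. MPK3 and MPK6, which act on shared substrates, had 0.161, and MPK4 and MKK9 had −0.767. These are descriptions over groups that share line, agent and time.

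The genes most like 4 of the members, by the same correlation over 16 group means and all genes tested, were then listed. Closest to MPK3 were PUB23 (0.974), a U-box ubiquitin ligase that restrains immune signalling, AT2G31990 (0.966) and MYB51 (0.965), a regulator of indole glucosinolate synthesis. Closest to MKK9 were ERF-1 (AT4G17500, 0.966), an ethylene response factor, ATR2 (0.959), a cytochrome P450 reductase, and SYP21 (0.958), a syntaxin. Closest to AP2C1 were ATL2 (0.950), a RING-type ubiquitin ligase, RBL7 (0.925) and AT3G17120 (0.918), and closest to MPK11 were AT2G21500 (0.904), NAC036 (0.902) and CBP60G (0.901), a regulator of salicylic acid synthesis. With Spearman's correlation 1 of the 3 closest genes was kept for MPK3, MKK9 and AP2C1 each, and 0 for MPK11.

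The rest of the pathway was read from 5 lists: 16 other MAP kinases (15 tested), 5 other MAP kinase kinases (2 tested), 19 MAP kinase kinase kinases (17 tested), 8 MAPK phosphatases (7 tested) and 16 immune and stress targets (15 tested). With DMBQ against DMSO, edgeR made its calls among the MAP kinase kinase kinases and the targets, and none in the other 3 lists. At 1 h in WT the list medians of the log2 difference were 0.08 for the MAP kinase kinase kinases and 0.34 for the targets, against −0.003 for all genes. Among the MAP kinase kinase kinases, MAPKKK15 was called in 3 of the 6. In WT at 1 h it had 4.08 ± 0.60 CPM with DMBQ and 1.10 ± 0.30 CPM with DMSO (SD, n = 3 each), a log2 rise of 1.89 ± 0.31 (adjusted p = 3.91e-05, edgeR). In card1 at 1 h it had 3.07 ± 1.1 CPM with DMBQ and 1.03 ± 0.09 CPM with DMSO, a log2 rise of 1.52 ± 0.38 (adjusted p = 0.0278, edgeR). It also rose in WT at 0.5 h (1.52, adjusted p = 0.041, edgeR), where MEKK2 fell by a log2 of 0.48 (adjusted p = 0.0342, edgeR). The WT DMBQ libraries at 0.5 h are among those that stood apart by transcript length, and neither value was corrected for it. In WT at 1 h MAPKKK16 (2.13, adjusted p = 0.00406, edgeR) and ANP2 (0.65, adjusted p = 0.00388, edgeR), which acts in cytokinesis and oxidative stress signalling, rose as well, which makes 3 of 17. The share of all genes called was 2.78% in WT at 1 h, 2.45% in WT at 0.5 h and 1.18% in card1 at 1 h, for these kinases and for the targets that follow. None of these differences was called as differing between the lines.

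Among the 15 targets, ZAT10, a zinc finger repressor that MPK3 and MPK6 phosphorylate, was called in both lines at 1 h. In WT it averaged 28.8 CPM with DMBQ and 6.17 CPM with DMSO (log2 2.20 ± 0.41, adjusted p = 0.000561, edgeR). In card1 it averaged 18.95 CPM with DMBQ and 3.57 CPM with DMSO (log2 2.34 ± 0.52, adjusted p = 0.00935, edgeR). WRKY53, a WRKY factor of defence and senescence, rose in WT at 0.5 h (10.2 CPM with DMBQ and 3.96 CPM with DMSO, log2 1.38 ± 0.30, adjusted p = 0.00661, edgeR). In card1 at 0.5 h its log2 difference was 1.45 ± 0.36 and the adjusted p was 0.123 (edgeR). The WT value of WRKY53 also rests on WT DMBQ libraries that stood apart by transcript length and was not corrected for it. NHL10 was called in card1 at 6 h, where 1.05% of all genes were, on few counts (0.995 ± 1.1 CPM with DMBQ and 0.0719 CPM with DMSO). No other target was called, WRKY33 and FRK1 included.

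Over time with DMSO the same lists moved more. At 0.5 h, 7 of the 15 targets were higher than at 0 h and none lower, among them PHI-1 (2.01), ERF6 (1.73), WRKY33 (1.32) and ERF104 (1.21), with a list median of 0.39 against −0.02 for all genes. Among the MAP kinase kinase kinases 3 of 17 were higher, MAPKKK16 (1.65), MEKK1 (0.74, adjusted p = 1.4e-09, edgeR), which stands above MKK1, MKK2 and MPK4, and YDA (0.31), which directs stomatal patterning. Of the other MAP kinases 4 of 15 were higher: MPK17 (0.56), MPK9 (0.44), MPK20 (0.31) and MPK19 (0.24). IBR5, a phosphatase of auxin signalling, was lower (−0.37). By 1 h the targets were split, 3 higher and 5 lower, with PHI-1 at −2.81, ACS6 at −1.35 and CYP81F2 at −1.29, and by 6 h 2 were higher and 9 lower, with PHI-1 at −5.46. The other MAP kinases were 7 higher and 2 lower at 1 h and 2 higher and 6 lower at 6 h. Of the 7 phosphatases, 3 were higher at 1 h (PTP1, MKP1 and DSPTP1). These counts stand beside 17.3%, 36.3% and 50% of all genes called at the 3 times. They include the card1 DMSO libraries at 0 h that stood apart. In WT alone at 0.5 h (8.45% of all genes called), 4 targets and 2 other MAP kinases were higher and none lower. There 1 MAP kinase kinase kinase was higher and 1 lower. In DMBQ libraries at 0.5 h (24.1%), which include the WT libraries that stood apart, 8 targets were higher and none lower. MAP kinase kinase kinases were 5 higher and 2 lower, other MAP kinases 3 higher and 1 lower. No phosphatase was called in either set.

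Between the lines over all conditions, where 44.6% of all genes were called (21.9% higher and 22.6% lower in card1), 4 of 15 other MAP kinases were higher and 5 lower in card1, with MPK16 at 0.23, MPK20 at 0.22 and MPK1 at −0.34. Of the 17 MAP kinase kinase kinases 1 was higher and 2 were lower, ANP1 among them (−0.26), and of the 7 phosphatases 2 were higher and 2 lower. Of the 15 targets FRK1, a receptor kinase gene used as a marker of flagellin responses, was higher (0.91), and 4 were lower, among them WRKY53 (−0.53) and VIP1 (−0.14).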

How the data were processed

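mRNA was measured in 48 libraries, 3 in each of 16 groups given by the labels. Per the labels' protocols, a KAPA mRNA HyperPrep kit was used. Raw counts of reads per gene were deposited by the authors, made with HISAT2 2.1.0, HTSeq 0.6.1 and TAIR10 per the submitters' processing notes. The sources used here give neither the annotation version nor the strand setting. The table also had 5 entries that name no gene, left out of library sizes and tests. From the deposited counts, edgeR 4.0.16 in R 4.3.3 kept 19839 genes (filterByExpr, minimum count 10), scaled libraries by TMM and fitted all libraries in 1 robust quasi-likelihood model of group means. Benjamini-Hochberg adjustment ran over all tested genes of a contrast, with calls at 0.05. CPM values and log2 differences were computed here, and intervals are 95%. The 16 contrasts are DMBQ against DMSO in each line and time, card1 minus WT responses, card1 against WT, later times against 0 h and their difference between lines; 17 were added after the data were seen. The members and lists were chosen with earlier results of these data known. Members are described in full, and list genes by the smallest adjusted p. No replicate pair was a duplicate (chi-square over its degrees of freedom 2.13 to 16.4). Depth ran from 4764682 to 14492051 counts, with a median of 8489009, which limits MPK11 most. The alternatives were no filter, DESeq2 1.42.0, RLE factors, a replicate block, a correction for transcript length and GC content, these last 2 together, only the compared groups, each library left out and, where they apply, 1 line alone, 1 agent alone, DMBQ in place of DMSO libraries or no DMSO libraries at 0 h. The pipeline was tested on simulated counts.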

Additional observations from a re-analysis of the deposited data

How the results depend on the processing

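In WT at 1 h, the number of members called for DMBQ against DMSO was 1 as reported and 2 with the replicate block, with the replicate block plus length and GC correction, and with only the compared groups. MPK11 was the added call (log2 1.78, 1.76 and 1.73; adjusted p = 0.0203, 0.0216 and 0.0404, edgeR). MKK9 stayed called in these fits, with DESeq2, with RLE factors, without the filter and with the length and GC correction (adjusted p = 0.00482 to 0.0179, edgeR or DESeq2). Leaving out 1 library in turn, the count ran from 0 to 1 in that comparison, from 0 to 1 in WT and card1 at 0.5 h, from 0 to 1 at 0 h in card1 and for the card1 minus WT change at 1 h with DMSO, and from 1 to 2 for DMSO at 6 h against 0 h. The WT call at 0.5 h was MKK9 (0.79, adjusted p = 0.05, edgeR) without replicate 3 of WT DMSO at 0.5 h. The call at 0 h in card1 was MPK6, without replicate 3 of card1 DMSO at 0 h. The same left-out library gave the MPK6 call in the card1 minus WT change. Both fits keep only replicates 1 and 2 of that group, which stood apart by transcript length. At 0 h in card1, DESeq2 called 1 member. For card1 against WT, 4 members were called as reported, 2 in DMBQ libraries only, 5 with the length and GC correction (MKK2 added, adjusted p = 0.0112, edgeR) and 6 with the block as well (MKK2 and MPK3 added, adjusted p = 0.00791 and 0.0429, edgeR). For DMSO at 6 h against 0 h the count was 1 as reported, 2 with the replicate block (MKK2 added), 3 with DMBQ libraries and 0 in card1 alone. MPK6 at 1 h against 0 h with DMSO was positive in the mean of the lines and −0.0627 in card1 alone; the cause was not tested. MPK11 was removed by the filter when only the compared groups were used over time. Beside these member counts, all genes called in WT at 1 h numbered 534 to 729 over the alternatives. With 1 library left out they numbered 368 to 597. For card1 against WT the alternatives gave 5104 to 9347 genes, and for DMSO at 6 h against 0 h 6192 to 10182. As reported, 19839 genes were tested.

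Replicate numbers were checked for pairing: 16 of 24 correlations of same-numbered libraries' deviations were over 0.1 (range −0.0484 to 0.408), and 18 of 24 matched their own number best. That is a hint from the data that same-numbered libraries share something. In card1 the correlations ran from 0.0268 to 0.408, and in WT from −0.0484 to 0.236. The labels name no shared culture, batch or day, and not every correlation was over 0.1. The samples were therefore not treated as paired, and the fits with the block are given only here. The block gave each replicate number the same effect in all groups, so pairing within a line and time was not fitted.

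Counts of all genes called moved by over 1.5 times in some fits. With only the compared groups they were 764 against 243 as reported in WT at 6 h, 10 against 30 in card1 at 0.5 h, 153 against 235 in card1 at 1 h, 5 against 0 for the response difference at 0.5 h and 2078 against 3429 for DMSO at 0.5 h against 0 h. In WT alone the last was 1676, the 1 h count 3632 against 7209 and the 6 h count 6192 against 9921. DMSO libraries alone gave 5104 genes for card1 against WT, against 8844. The card1 count at 6 h was 337 with block, length and GC correction, against 209. At 0 h, WT had 44 to 53 genes under 4 alternatives, against 25, and card1 had 9 with length and GC correction, 23 with the block added and 0 with only the compared groups, against 1082. The change over time in card1 minus WT with DMSO also moved. At 0.5 h it was 1269 as reported, 115 and 160 with length and GC correction without and with the block, 1 with only the compared groups and 690 with DMBQ libraries. At 1 h it was 25, with 95 under the block, 276 with DESeq2 and 0 to 6 under the other 4 that moved it. At 6 h it was 239, with 417 under the block, 440 with DESeq2, 134 with length and GC correction, 116 with DMBQ libraries and 11 with only the compared groups. With 1 library left out, the counts ran from 126 to 1056 in WT at 0.5 h, 134 to 336 at 6 h, 16 to 37 in card1 at 0.5 h, 132 to 249 at 6 h and 0 to 4067 at 0 h, and from 356 to 3396, 0 to 1932 and 39 to 2136 for the change over time in card1 minus WT. MPK11, with 0 to 22 counts per library, is the member that depth limits most.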
